A study of Mus musculus with 60 samples.

Results

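The comparison describes how gene expression changed between DIV3 and DIV5 (days in vitro) in mouse primary cortical neurons that carried paxillin siRNA and were kept with BDNF. Its members were chosen by their labels and are 9 of the 60 samples of the series. There were 4 libraries at DIV3, from the cultures numbered 1, 2, 10, and 11, and 5 libraries at DIV5, from the cultures numbered 1, 2, 4, 10, and 11. All 9 came from the cerebral cortex of WT embryos at E18, and in all 9 the paxillin siRNA and 20 ng/ml BDNF were added at DIV2, so that the groups differed in the day of collection. The study followed paxillin siRNA and SC (scrambled control) siRNA, each with or without BDNF, at DIV3, DIV5, and DIV10 in 46 libraries. It also held 2 samples of E15 cortex, and 12 long-read libraries of hippocampus that were not used here. For comparison, the change from DIV3 to DIV5 was also taken from SC siRNA with BDNF (3 and 4 libraries) and from paxillin siRNA without BDNF (5 and 6 libraries). Levels are in TPM, a measure of transcript abundance which corrects for gene length and gives every library the same total, so differences are in the share of RNA. The labels give each library a number, called its culture number here. They do not state that each number is a separate preparation or that libraries of the same number share a culture. The spread behind the p-values may therefore be technical. In the main limma fit this spread was pooled within the groups of all 48 libraries of cortex, not taken from these 9 alone.

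BDNF is a neurotrophin that binds the receptor TrkB on neurons and activates the ERK pathway, which switches on immediate early genes such as Egr1 and Arc within minutes to hours. The same pathway induces its own inhibitors, among them the dual-specificity phosphatases that remove phosphate from ERK and the Sprouty and Spred proteins that act upstream of it. Paxillin is an adaptor protein of focal adhesions, the contacts through which integrins join the extracellular matrix to the actin cytoskeleton. In embryonic cortical cultures, neurons make up most of the cells at first, and astrocytes and oligodendrocyte precursors appear later.

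Pxn (chr5:115491970-115555987, GRCm38), the gene targeted by the siRNA, was measured first. Its level at DIV3 was 10.3, 11.8, 10, and 10.1 TPM in cultures 1, 2, 10, and 11, and at DIV5 it was 8.74, 13.8, 12.8, 9.43, and 10.3 TPM in cultures 1, 2, 4, 10, and 11. The groups overlapped, and the difference was 0.04 on the log2(TPM + 1) scale (2-sided exact permutation test, p = 0.77 over 126 splits, where the smallest possible p was 0.0159). In the libraries with SC siRNA and BDNF, Pxn ranged from 7.98 to 12.3 TPM at DIV3 and from 10 to 19 TPM at DIV5. The libraries labelled paxillin siRNA were therefore not below the SC libraries at DIV3. At DIV5 their mean was lower, 11 against 15.3 TPM, with ranges that overlapped. The groups are called by their labels throughout.

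Between DIV3 and DIV5, 1856 of 14250 genes tested, those whose mean reached 1 TPM, changed (limma, adjusted p under 0.05), which is 13% of the genes tested, with 1062 higher (7.45%) and 794 lower (5.57%) at DIV5. The change was at least 1 on the log2 scale for 392 of the genes that rose and 143 of those that fell. The lowest library of one day lay above the highest of the other for 11.7% of all genes tested in the direction of a higher level and for 9.66% in the direction of a lower level, and the median difference over all genes was 0.02. With the culture number as a block, which the pairing of the libraries allows, 3570 genes changed, 2062 of them higher and 1508 lower. Counts with the block stand beside these numbers and not beside the shares above. The DIV5 libraries of cultures 2 and 4 stood apart from the other 3 in their neuronal and cholesterol genes, and without both of them the number of changed genes was 422, of which 413 were among the 1856. In RNA from a whole culture, fewer cells of a type and less RNA per cell cannot be told apart.

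Among the largest falls were genes known for their immediate response to BDNF. Egr2 (chr10:67534469-67542188), a zinc finger transcription factor, was at 81.1, 38.1, 55.2, and 71.1 TPM at DIV3 and at 3.78, 2.61, 1.49, 4.19, and 5.39 TPM at DIV5. All DIV5 libraries lay below all DIV3 libraries, by 3.81 ± 0.33 (SE) on the log2 scale (limma, adjusted p = 9.70e-10). Arc (chr15:74669081-74672570), whose protein controls the removal of AMPA receptors from synapses, was at 207.5, 167.8, 217.1, and 222.8 TPM at DIV3 and at 14.6, 15.4, 15.7, 16.6, and 15 TPM at DIV5. This is a fall by 3.63 ± 0.39 (adjusted p = 9.70e-08) with a narrow range on both days. Egr1, the most abundant member of the Egr family here, was at 942.8, 796.1, 869.5, and 909.9 TPM at DIV3 and at 119.1, 142.1, 60.9, 192.4, and 291.1 TPM at DIV5, a fall by 2.62 ± 0.44 (adjusted p = 1.65e-04). None of these groups overlapped. Within each of the 4 culture numbers found on both days, Egr2 fell by 3.44 to 4.10, Arc by 3.36 to 3.81, and Egr1 by 1.64 to 2.97.

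**Figure D1:**
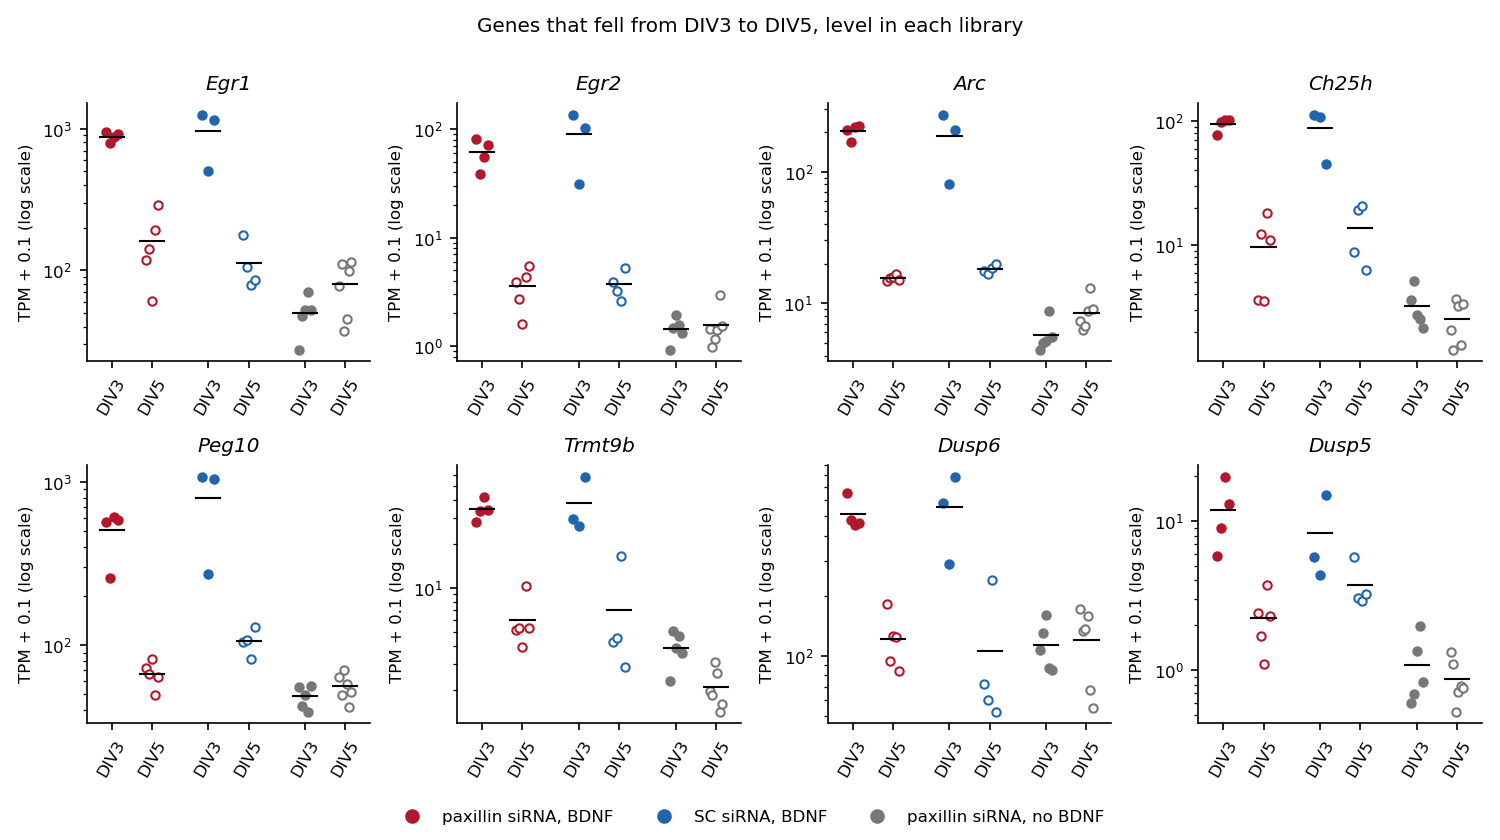
Levels of 8 genes that fell from DIV3 to DIV5, in TPM + 0.1 on a log axis, with a point for each library, filled at DIV3 and open at DIV5, and a line at the group mean for paxillin siRNA with BDNF (red), SC siRNA with BDNF (blue), and paxillin siRNA without BDNF (grey). With BDNF, Arc sits between 167.8 and 222.8 TPM at DIV3 and between 14.6 and 16.6 TPM at DIV5 in the paxillin siRNA libraries, whereas without BDNF it stays between 4.34 and 12.9 TPM on both days.

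Of 17 immediate early transcription factors tested, Egr1 and Egr2 were the members that fell, and none rose. Over all genes tested, 5.57% fell and 7.45% rose. The median difference over the list was −0.21, and Fos, Fosb, Junb, Jun, and Npas4 did not pass the test. Fos was at 30.2, 25.7, 96.5, and 50.6 TPM at DIV3 and at 29.2, 48.7, 50.8, 34.9, and 49.9 TPM at DIV5, so that its groups overlapped. With the block, 5 of the 17 fell, beside 1508 of all 14250 genes tested. Among 14 activity-induced effector genes, 4 fell and none rose, with a median of −0.87. They were Arc, the kinase gene Sik1 (−0.87 ± 0.21), the scaffold gene Homer1 (−0.87 ± 0.23), which is measured here over all its isoforms, and Nrn1 (−1.38 ± 0.44), a membrane-anchored protein that promotes neurite growth. Without cultures 2 and 4 at DIV5, Arc and Sik1 remained among the genes that fell. Scg2, a granin stored in dense core vesicles, spanned 445.9 to 3226 TPM at DIV3 alone and did not pass.

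Of 12 inhibitors of ERK signalling tested, 7 fell and none rose, against 5.57% lower and 7.45% higher over all genes tested. The median was −0.65 against 0.02 over all genes, and all 12 differences were negative. The summed level of the 12 was between 1248 and 1423 TPM at DIV3 and between 553.7 and 660.0 TPM at DIV5. Dusp6 (chr10:99263231-99267489), a cytoplasmic ERK phosphatase, was at 656.3, 476.7, 449.3, and 464.8 TPM at DIV3 and at 181.0, 93.9, 126.2, 125.0, and 84.5 TPM at DIV5, without overlap. It fell by 2.09 ± 0.43 (limma, adjusted p = 0.00133). Dusp5, a nuclear ERK phosphatase, fell by 1.95 ± 0.32 (adjusted p = 1.14e-04), from 5.73, 8.85, 19.7, and 12.8 TPM to 2.32, 1.59, 1, 3.61, and 2.23 TPM. Dusp4, Spred3, Spry4, Spry1, and Spred2 fell by 1.63, 1.77, 1.64, 0.70, and 0.59. In each fit with 1 library left out, 6 or 7 of the list fell. Without cultures 2 and 4 at DIV5, 4 fell, namely Dusp4, Dusp5, Dusp6, and Spred3.

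Among the promoters found for 14 immediate early genes and 10 ERK inhibitors, those of Egr2 and Dusp5 held a CArG box, the element bound by serum response factor. Their sequences are shown because both genes fell. Each runs from 250 bases before to 50 bases after an annotated transcript start on the plus strand (RefSeq, GRCm38.p6), at chr10:67537619-67537918 for Egr2 and at chr19:53528895-53529194 for Dusp5. Egr2 has several annotated starts, and the one shown, whose window held as many of these motifs as any other, lies inside the gene span given above. Capitals mark CArG boxes and the core TGACG of the cAMP response element, in either orientation.
Egr2: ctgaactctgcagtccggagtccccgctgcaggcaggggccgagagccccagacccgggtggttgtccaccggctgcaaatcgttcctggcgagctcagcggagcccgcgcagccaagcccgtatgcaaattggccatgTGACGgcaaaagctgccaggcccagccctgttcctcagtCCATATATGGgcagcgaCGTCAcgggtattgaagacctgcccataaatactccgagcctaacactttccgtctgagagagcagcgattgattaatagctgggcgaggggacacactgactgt
Dusp5: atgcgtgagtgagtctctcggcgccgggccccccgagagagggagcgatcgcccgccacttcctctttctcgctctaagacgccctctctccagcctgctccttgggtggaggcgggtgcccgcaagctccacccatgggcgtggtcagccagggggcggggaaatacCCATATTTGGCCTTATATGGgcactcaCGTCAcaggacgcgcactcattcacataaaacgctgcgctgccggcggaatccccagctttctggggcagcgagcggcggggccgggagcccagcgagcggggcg
In Dusp5 a pair of CArG boxes lay end to end, and in Egr2 a single box lay between TGACG cores on both sides. Both motifs were searched on both strands, and no match of one overlapped a match of the other in these windows. Counting a gene where any of its windows held the motif, a CArG box was found for 1.48% of the 11256 tested genes with a promoter, for 2.37% of those that fell and for 1.29% of those that rose. TGACG was found for 34.4% of all these genes, for 38.3% of those that fell and for 27% of those that rose. It was present for 11 of 14 genes of the immediate early list, most of whose members did not pass the test. A match describes the letters of the window and not a bound site.

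Other genes with a large fall differ in function. Ch25h, which makes 25-hydroxycholesterol, was at 76.6, 98.2, 102.2, and 102.5 TPM at DIV3 and at 3.51, 12.2, 3.47, 18, and 10.8 TPM at DIV5, a fall by 3.40 ± 0.41 (limma, adjusted p = 7.63e-07). Peg10, an imprinted gene derived from a retrotransposon, fell by 2.84 ± 0.37 (adjusted p = 3.36e-06), from 567.8, 258.7, 609.8, and 582.8 TPM to 72.1, 66.4, 82.5, 49.1, and 63.9 TPM. In both genes the days did not overlap. Galr1, a galanin receptor, was at 2.72, 3.01, 38.2, and 11.7 TPM at DIV3 and below 1 TPM in all 5 libraries at DIV5, a fall by 2.99 ± 0.36 (adjusted p = 8.18e-07). Trmt9b, a putative tRNA methyltransferase gene, fell by 2.42 ± 0.30, and Rgs5, Mgp, and Col10a1 fell by 2.58, 2.43, and 2.43. All 12 genes with the largest falls passed the test whichever single library was omitted, and 11 of them passed without cultures 2 and 4 at DIV5, the exception being Col10a1 (adjusted p = 0.0529).

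Genes of cholesterol synthesis fell in 10 of 21 members tested, and none rose, against 5.57% lower and 7.45% higher over all genes tested. All 21 differences were negative, with a median of −0.82, and the 10 included Hsd17b7, Cyp51, Sc5d, Sqle, Msmo1, Nsdhl, Fdps, and Lss. Sc5d, a sterol desaturase late in the pathway, fell by 1.23 ± 0.29 (limma, adjusted p = 0.00407), from 347.0, 381.7, 631.2, and 494.7 TPM to 218.7, 106.0, 113.8, 380.1, and 259.7 TPM. Cyp51, which demethylates lanosterol, fell by 1.26 ± 0.33 (adjusted p = 0.00925), from 316.2, 360.0, 737.9, and 540.0 TPM to 237.8, 91, 96, 424.3, and 290.9 TPM. The days overlapped for every gene of the list. The size of the fall also rested on the DIV5 libraries of cultures 2 and 4, in which the summed level of the list was 1892 and 2381 TPM, against 4570 to 8068 TPM over the DIV3 libraries and up to 5854 TPM at DIV5. Without these libraries none of the 21 passed the test of limma, 4 had an unadjusted p under 0.05, and the median was −0.44. Leaving out single libraries gave from 2 to 14 genes, with 2 the lowest. The block, under which 1508 of all 14250 genes tested fell, gave 12, without Sqle (adjusted p = 0.0542), Nsdhl (0.0654), and Fdps (0.0587).

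Axon guidance genes fell in 10 of 40 members tested, and none rose, against 5.57% lower and 7.45% higher over all genes tested. The median was −0.46. Robo1, a receptor for Slit proteins, fell most, by 1.99 ± 0.25 (limma, adjusted p = 1.33e-06), from 9.65, 10.6, 16.4, and 13.4 TPM to 1.96, 1.1, 1.69, 4.92, and 3.14 TPM. Its ligand gene Slit2 fell by 1.10 ± 0.27. The semaphorin receptors Plxna4 and Nrp1 fell by 1.21 ± 0.22 and 1.16 ± 0.26, and the semaphorin Sema3a fell by 1.00 ± 0.24. The netrin receptors Dcc and Unc5d, the ephrin receptor Epha3, and the ephrins Efnb1 and Efnb2 completed the group. For Robo1, Plxna4, Nrp1, Epha3, Unc5d, and Slit2 every DIV5 library lay below every DIV3 library. Without cultures 2 and 4 at DIV5, 3 of the 40 fell, namely Robo1 (−1.67), Plxna4 (−0.88), and Unc5d (−0.79).

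**Figure D2:**
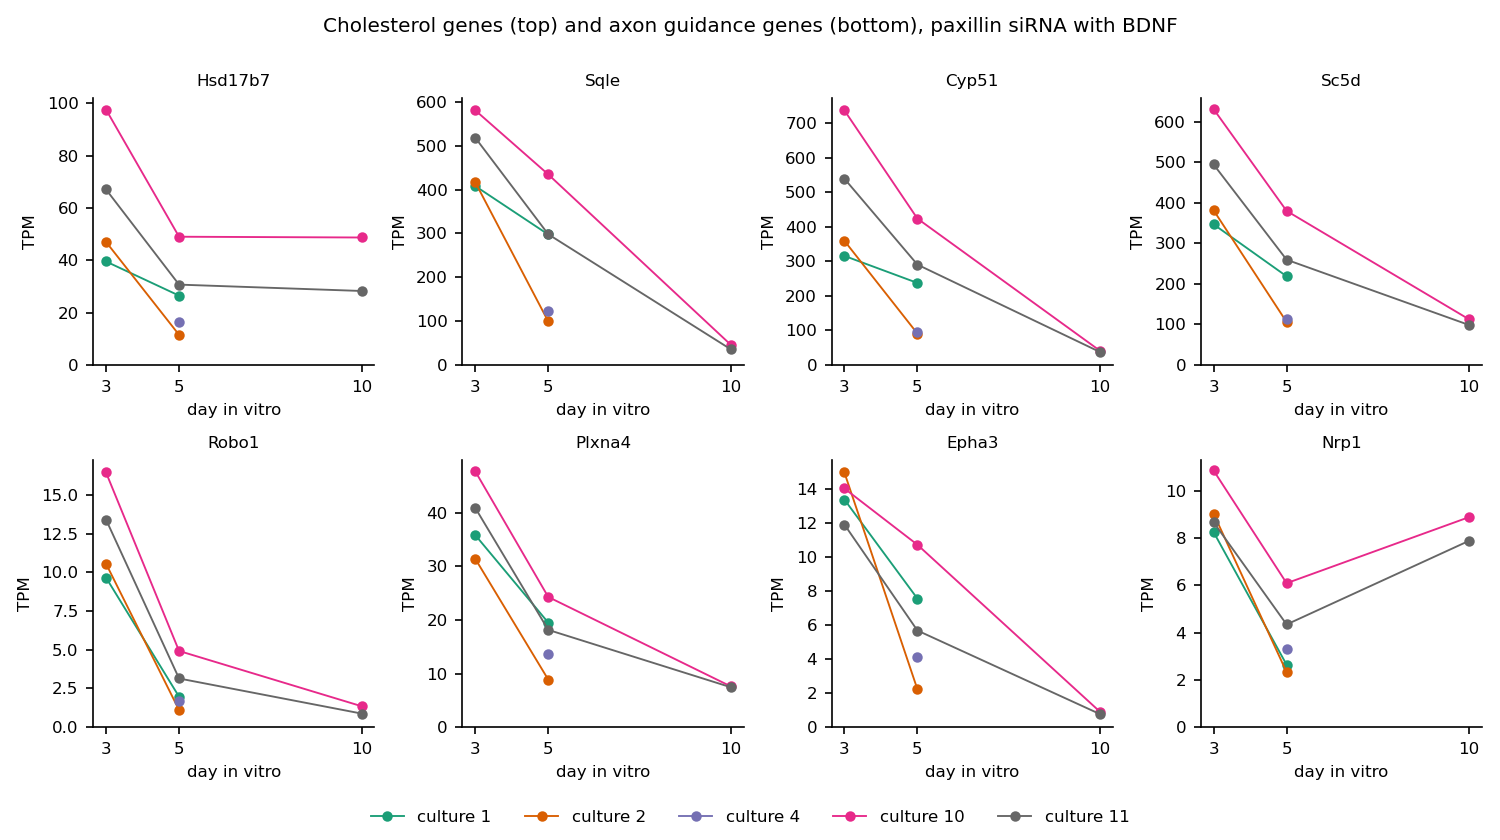
Levels in TPM on a linear axis of 4 cholesterol genes (top) and 4 axon guidance genes (bottom) against the day in vitro, with a point for each library of paxillin siRNA with BDNF and lines that join the same culture number. Among the DIV5 libraries, those of cultures 2 and 4 are the lowest for the cholesterol genes, with Cyp51 at 91 and 96 TPM. Every culture number found on both days runs downward from DIV3 to DIV5, and the DIV10 libraries are also shown.

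Markers of glia were higher at DIV5 and markers of connective tissue were lower. All 9 astrocyte markers had a positive difference, with a median of 1.36, and 4 of them rose, against 7.45% of all genes tested. Gja1, the gap junction protein connexin 43, was at 36.7, 27.4, 17.3, and 20.7 TPM at DIV3 and at 92.9, 137.0, 141.1, 106.9, and 155.4 TPM at DIV5, a rise of 2.30 ± 0.65 (limma, adjusted p = 0.0165) without overlap. The glutamate transporter Slc1a3, the transcription factor Sox9, and the folate enzyme Aldh1l1 rose by 1.36, 1.23, and 0.76. Gfap, the astrocyte intermediate filament, spanned 4.75 to 425.7 TPM at DIV3 and 124.2 to 1024 TPM at DIV5 and did not pass (adjusted p = 0.171). The summed astrocyte level was 299.2 to 856.4 TPM at DIV3 and 1393 to 2146 TPM at DIV5.

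Oligodendrocyte lineage genes were among the largest rises. Gpr17, a receptor of differentiating precursors, was at 303.3, 271.1, 10.3, and 72.2 TPM at DIV3 and at 610.2, 1356, 1148, 643.8, and 781.8 TPM at DIV5, a rise of 3.25 ± 0.96 (limma, adjusted p = 0.0212). The lineage transcription factor Sox10 rose by 2.50 ± 0.60 (adjusted p = 0.00512), from 35.4, 37.5, 7.14, and 21.9 TPM to 77.4, 214.2, 174.0, 93.3, and 123.4 TPM. In both genes the DIV3 library of culture 10 was the lowest, and the days did not overlap. All 6 precursor markers had positive differences (median 1.36), and 3 rose, against 7.45% of all genes tested. The third was the proteoglycan Cspg4 (1.36 ± 0.39). Of 7 myelin markers 1 rose, Cnp (2.32 ± 0.64), and the median was 1.66. The rest of the 12 largest rises were on none of these marker lists. They were Bcas1, Paqr6, Entpd2, S100a16, Sfrp5, Ntsr2, Cerox1, and Gstm1, with differences from 2.40 to 2.98, and Cox6a2 (2.64) and Txnip (2.57). Of these 12, 6 passed whichever single library was omitted. Gpr17 and Entpd2 passed in 5 of 9 such fits and Sfrp5 in 4. Gstm1, Ntsr2, Paqr6, Cerox1, and Txnip passed without cultures 2 and 4 at DIV5, Gstm1 by the widest margin (adjusted p = 8.66e-04). Without these cultures, none of the astrocyte, precursor, or myelin markers passed the test of limma, with 6, 3, and 1 at an unadjusted p under 0.05 and medians of 1.41, 1.32, and 1.08. With the block, 9, 6, and 3 rose, beside 2062 of all 14250 genes tested.

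Fibroblast markers showed the reverse. Of 5 tested 4 fell, with a median of −2.37, beside 5.57% of all genes tested that fell. Col1a1, a chain of type I collagen, was at 157.8, 42.8, 42.5, and 17.4 TPM at DIV3 and at 4.18, 9.68, 3.86, 1.81, and 1.27 TPM at DIV5, a fall by 3.45 ± 0.79 (limma, adjusted p = 0.00364). Col3a1, Col1a2, and the meningeal transcription factor Foxc1 fell by 3.33, 2.37, and 1.95, without overlap. The pericyte and smooth muscle genes Rgs5, Kcnj8, and Acta2 fell by 2.58, 1.48, and 1.80, whereas the other mural marker tested, Pdgfrb (0.29 ± 0.37), and the endothelial marker Cldn5 (0.46 ± 0.47) did not pass. The endothelial genes Pecam1, Flt1, and Tek had means under 1 TPM and were not tested. Extracellular matrix genes moved both ways, with 3 of 23 higher and 4 lower, against 7.45% and 5.57% of all genes tested. The brain proteoglycan Bcan, Sparcl1, and the laminin chain Lamb2 rose by 1.50, 1.67, and 0.95, and Thbs1, Nid1, Tnc, and Lamb1 fell by 2.16, 1.13, 1.01, and 0.82.

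**Figure D3:**
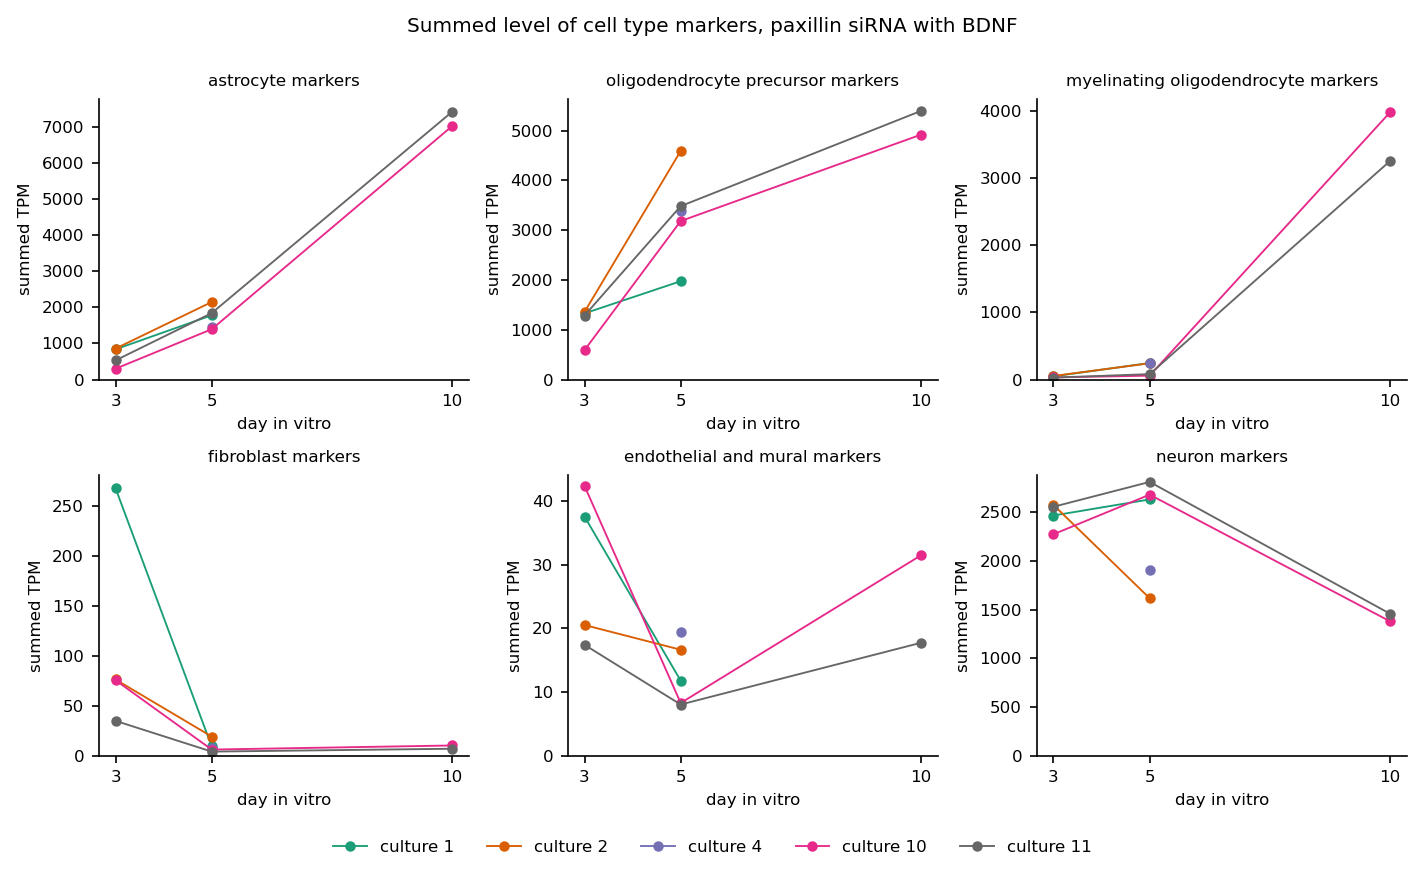
Summed TPM of 6 lists of cell type markers against the day in vitro in the libraries of paxillin siRNA with BDNF, on linear axes that start at 0, with a point for each library and lines that join the same culture number. The astrocyte sum lies between 299.2 and 856.4 TPM at DIV3 and between 1393 and 2146 TPM at DIV5, while the fibroblast sum drops from between 34.9 and 268.3 TPM to between 4 and 19.1 TPM.

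Pan-neuronal markers as a group moved little. None of 8 pan-neuronal markers passed the test of limma, with 1 of them, Rbfox3, at an unadjusted p under 0.05 and a median of 0.07. Their sum was 2273 to 2574 TPM at DIV3 and 1615 to 2811 TPM at DIV5, with cultures 2 and 4 lowest. Of 20 genes of immature neurons and axon growth 1 fell, which is near the 5.57% of all genes tested that fell. It was Nnat, lower by 1.76 ± 0.37 (limma, adjusted p = 0.00172), from 7107, 6469, 16606, and 12827 TPM to 1797, 3137, 2330, 4493, and 3705 TPM. Nnat encodes neuronatin, a small membrane protein of developing brain. The tubulin gene Tuba1a, which shares sequence with its paralogs, was at 12683 and 15226 TPM in cultures 2 and 4 at DIV5 and between 22309 and 27546 TPM in all other libraries. None of 18 cortical excitatory neuron transcription factors and none of 17 interneuron genes passed, with 2 and 4 at an unadjusted p under 0.05. The median difference was −0.20 for the immature neuron list, −0.26 for the excitatory list, and 0.75 for the interneuron list, where 13 of 17 were positive. With the block, 6 of the excitatory list fell and 6 of the interneuron list rose, beside 1508 lower and 2062 higher of all 14250 genes tested.

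Of 14 progenitor genes, 3 rose and 2 fell, against 7.45% and 5.57% of all genes tested. Sox2, Hes1, and Hes5, which are expressed in radial glia, rose by 1.29 ± 0.26, 1.08 ± 0.22, and 1.24 ± 0.27. Eomes, a marker of intermediate progenitors, fell by 1.38 ± 0.35 and Neurod1, which follows it in new neurons, fell by 1.34 ± 0.27. Fabp7 (−0.01 ± 0.66), Nes (−0.60 ± 0.53), Vim (−0.25 ± 0.45), and Pax6 (0.63 ± 0.27), also genes of radial glia, did not pass. The 5 genes that passed had groups that did not overlap, and all 5 passed whichever single library was omitted. Without cultures 2 and 4 at DIV5, Hes5 no longer passed (adjusted p = 0.111). Sox2 was at 330.7, 242.3, 164.2, and 323.0 TPM at DIV3 and at 442.1, 827.6, 855.8, 458.2, and 666.7 TPM at DIV5. None of 18 DNA replication genes and none of 20 mitosis genes passed the test of limma, and at an unadjusted p under 0.05 there were 0 and 2. Mki67, a marker of cycling cells, was between 101.3 and 169.7 TPM at DIV3 and between 103.4 and 135.8 TPM at DIV5.

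In the synaptic and channel lists few members changed, beside 13% of all genes tested, 7.45% higher and 5.57% lower. Glutamate receptors, with 4 of 18, were above that share. Syn2, a synapsin of the vesicle cluster, rose by 1.00 ± 0.15 (limma, adjusted p = 1.80e-05), from 3.52, 4.32, 2.91, and 3.81 TPM to 8.85, 8.45, 8.84, 6.71, and 8.38 TPM. It and Amph (0.42) were the 2 of 24 presynaptic genes that passed. Among 18 glutamate receptor genes, the NMDA receptor subunit Grin2a and the AMPA receptor subunit Gria2 fell by 1.28 ± 0.30 and 0.76 ± 0.23, and the metabotropic receptors Grm3 and Grm7 rose by 0.80 and 0.60. Grm3 passed in 3 of 9 fits with a single library left out and did not pass with the block (adjusted p = 0.0706). Of 26 postsynaptic genes, Nrgn (1.69) and the kinase Camk2a (1.04) rose, but with single libraries left out Nrgn passed in 4 of 9 fits and Camk2a in 1. Gabrd, the delta subunit of the GABA-A receptor, rose by 1.46 as 1 of 17 GABA genes, and Cacna1g, a T-type calcium channel, rose by 1.44 ± 0.36 as 1 of 12 calcium channel genes. None of 7 sodium channel genes and none of 20 potassium channel and HCN genes passed, with 0 and 6 at an unadjusted p under 0.05. Of 19 neuropeptide and granin genes, the prohormone convertase Pcsk2 rose by 1.35 ± 0.25 and neurotensin (Nts) fell by 1.27 ± 0.43. Among the 5 tested neurotrophins and receptors, the sorting receptor Sort1 fell by 0.74 ± 0.25. With single libraries left out, Gabrd passed in 4 of 9 fits, Sort1 in 3, and Nts in 1. The BDNF receptor Ntrk2 was at 19.3 to 24.4 TPM at DIV3 and at 29.6 to 41.9 TPM at DIV5, without overlap, but did not pass unless the culture was a block (adjusted p = 0.128, and 0.00489 with the block).

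Adhesion genes, to which paxillin belongs, changed in 5 of 32 members, 4 higher and 1 lower, which is near the 13% of all genes tested. Vcl, which encodes vinculin, a binding partner of paxillin at focal adhesions, fell by 1.33 ± 0.28 (limma, adjusted p = 0.00178), from 23.3, 17.3, 18.8, and 15.1 TPM to 9.13, 6.5, 4.59, 7.86, and 6.33 TPM. The laminin receptor subunit Itga7 rose by 1.76 ± 0.38 (adjusted p = 0.00191), from 4.23, 3.5, 1.35, and 3.19 TPM to 11.3, 18.1, 17.1, 8.03, and 9.58 TPM. In both genes the days did not overlap. The kindlin gene Fermt2, the parvin gene Parva, and the integrin-linked kinase Ilk rose by 0.55, 0.52, and 0.28. Without cultures 2 and 4 at DIV5, Vcl was the member that passed.

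Splicing factor genes shifted by small amounts, with 6 of 43 lower, 2 higher, and a median of −0.14. Over all genes tested, 5.57% were lower and 7.45% higher. Mbnl2 and Qk, RNA-binding proteins that regulate exon choice, rose by 1.14 ± 0.20 and 1.27 ± 0.29. Mbnl2 was at 1.45, 1.88, 1.66, and 1.46 TPM at DIV3 and at 4.47, 5.98, 6.61, 3.47, and 3.9 TPM at DIV5. U2af1, Hnrnpa1, Celf1, Khdrbs3, Srsf3, and Hnrnpu fell by 0.59, 0.54, 0.40, 0.53, 0.68, and 0.40. The groups were apart for 15 of the 43 in the direction of a lower level, against 9.66% of all genes tested. With the block 16 fell and 4 rose, beside 1508 and 2062 of all 14250 genes tested. Without cultures 2 and 4 at DIV5, U2af1 fell and Mbnl2 rose (adjusted p = 0.0106 and 0.0147), and no other member passed. The summed level was 11151 to 12245 TPM at DIV3 and 9180 to 10184 TPM at DIV5. These values are by gene and give no exon inclusion.

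The counts of the remaining lists stand beside the 7.45% of all genes tested that rose and the 5.57% that fell. All 24 genes of the amino acid stress response had positive differences (median 0.70), and Atf5, Phgdh, and Psat1 rose by 1.31, 1.03, and 0.70. Of 14 p53 targets and cell death genes, Bbc3, Phlda3, and Sesn1 rose by 1.82, 1.44, and 0.42. Bbc3, a pro-apoptotic BH3-only gene, was at 143.6 and 205.2 TPM in cultures 2 and 4 at DIV5, between 49 and 98.1 TPM in the other 3, and between 19.2 and 33.8 TPM at DIV3. Neither list had a member that passed without cultures 2 and 4 (limma, with 3 and 1 at an unadjusted p under 0.05). Of 7 linker histone genes, which share sequence with each other, H1f2, H1f3, and H1f4 rose by 2.21 ± 0.38, 1.54 ± 0.46, and 1.32 ± 0.43. Among 24 glycolysis and hypoxia genes, Pfkm, Ldhb, and Bnip3 rose by 0.46, 0.39, and 0.79, and Ldha and Hk2 fell by 0.71 and 0.75. Cycs, cytochrome c, fell by 0.89 ± 0.20 as 1 of 24 nuclear respiratory chain genes. None of 6 microglia markers, 14 interferon-stimulated genes, and 4 red blood cell markers passed, with 0, 0, and 2 at an unadjusted p under 0.05.

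**Figure D4:**
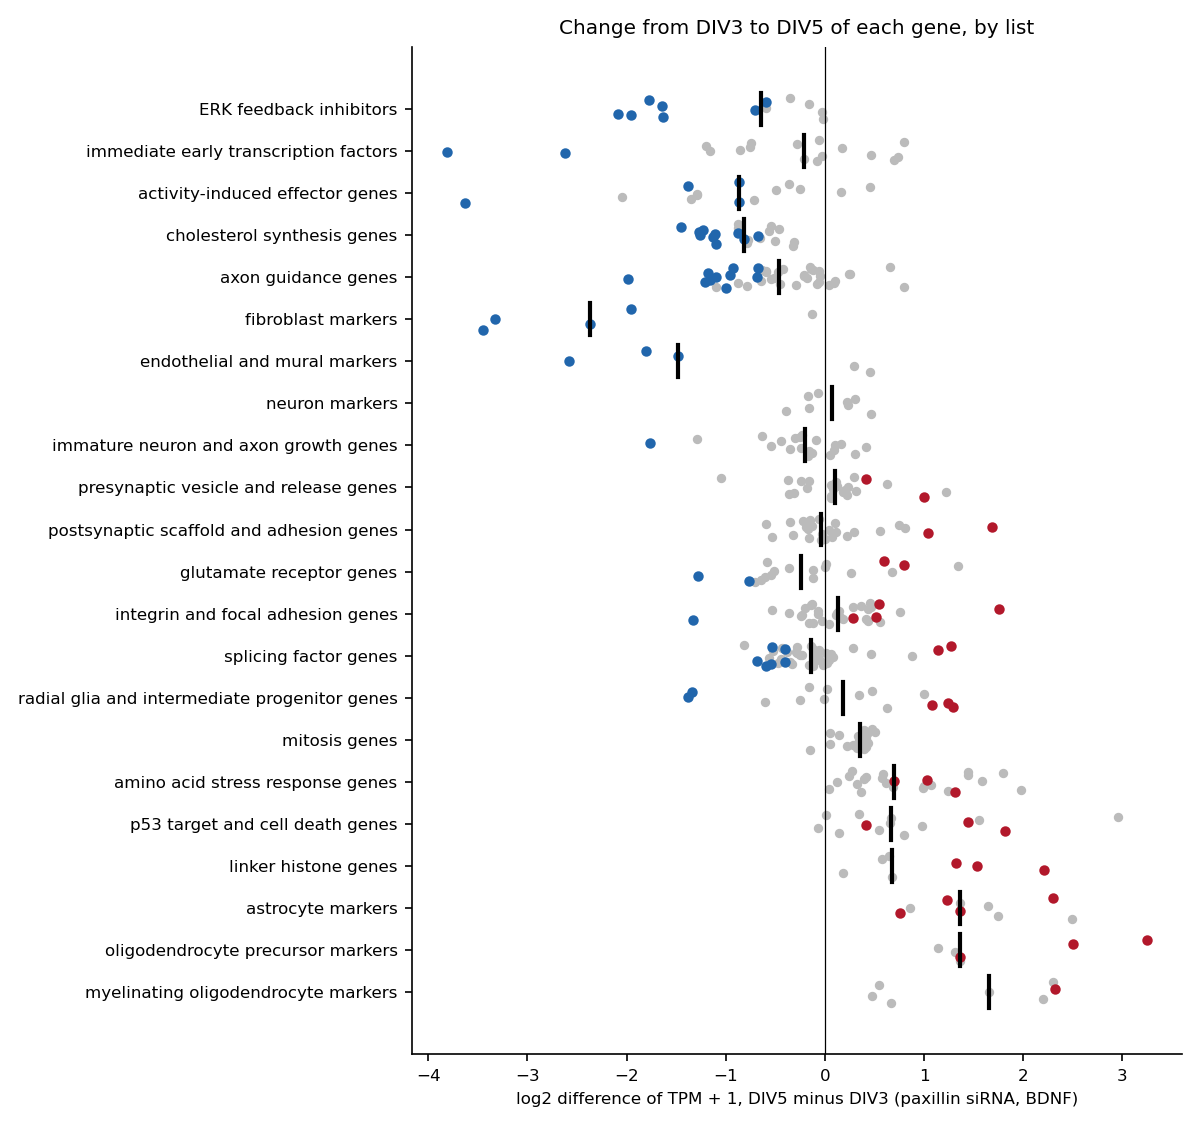
Difference from DIV3 to DIV5 of each tested gene of 22 lists in paxillin siRNA with BDNF, as the log2 difference of TPM + 1, with a point for each gene (blue for genes that fell, red for genes that rose, grey for genes that did not pass limma at an adjusted p of 0.05) and a bar at the median of the list. All 12 inhibitors of ERK signalling and all 21 cholesterol genes lie below 0, and all 24 amino acid stress genes lie above it.

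The question whether these changes went with BDNF was addressed by setting them against the change from DIV3 to DIV5 in paxillin siRNA without BDNF. The change differed for 19 of 14250 genes (0.133%), more negative with BDNF for 18 (0.126%) and more positive for 1 (0.00702%). With the culture number as a block, which the pairing of these libraries allows, it differed for 534 genes, 340 of them more negative and 194 more positive with BDNF, and all 19 were among them. Arc was at 4.34 to 8.6 TPM at DIV3 and 6.12 to 12.9 TPM at DIV5 without BDNF, so that its change differed by −4.12 ± 0.52 (limma, adjusted p = 1.12e-05). Egr2 without BDNF was at 0.826 to 1.82 TPM and then at 0.877 to 2.86 TPM, a difference of −3.87 ± 0.45 (adjusted p = 2.58e-06). For Egr1, Ch25h, Peg10, and Galr1 the differences were −3.24, −3.13, −3.03, and −2.92. Without BDNF, Peg10 stayed between 39 and 70 TPM on both days, and its DIV5 levels with BDNF fell in that range in 3 of 5 libraries and just above it in the others.

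The other genes of this group had varied functions. Nab2, a corepressor that binds Egr proteins, was at 129.8, 110.0, 113.1, and 121.3 TPM at DIV3 and at 58, 53.7, 60.7, 44.3, and 37.9 TPM at DIV5 with BDNF, against 16.1 to 23.7 TPM and 21.5 to 36.8 TPM without it (difference −1.86 ± 0.31, adjusted p = 0.00133). Rasl11a, a small GTPase, and Fam131a differed by −1.87 each. Cpne7, a calcium-dependent phospholipid-binding protein, differed by −2.33 ± 0.45 although its own fall with BDNF did not pass (adjusted p = 0.0529), since it was higher at DIV5 without BDNF, at 5.26 to 11 TPM against 1.66 to 3.53 TPM at DIV3. Galnt7, Ndst3, Cd55, Gimap6, Clcn5, 1700012D01Rik, A830021M18Rik, and Gm31740 made up the rest of the 18, with differences from −1.05 to −2.02. Gdf9, a growth factor of the TGF-beta family, was the gene whose change was more positive with BDNF (0.86 ± 0.19, adjusted p = 0.0392), from 2.45, 2.7, 1.68, and 2.43 TPM to 3.36, 4.49, 4.72, 3.49, and 4.66 TPM, against 3.61 to 4.43 TPM and then 2.84 to 3.76 TPM without BDNF.

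**Figure D5:**
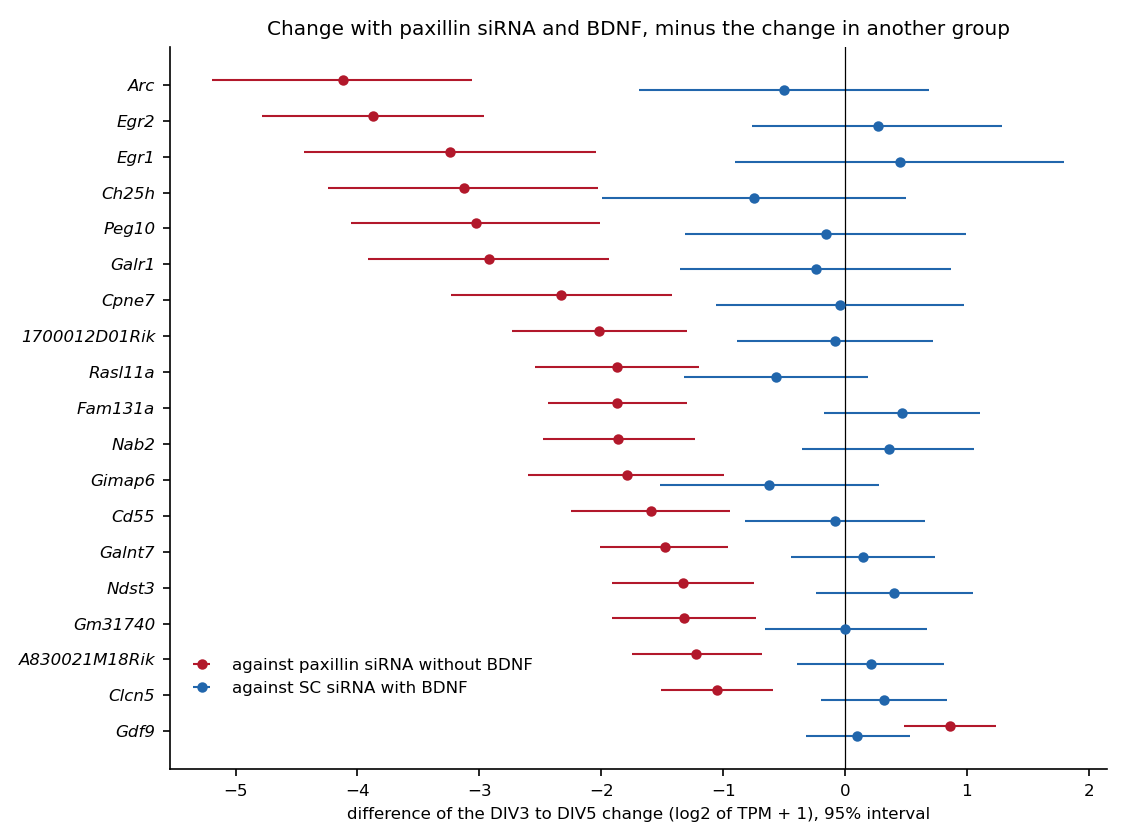
Change from DIV3 to DIV5 in paxillin siRNA with BDNF minus the change in paxillin siRNA without BDNF (red) or in SC siRNA with BDNF (blue), on the log2(TPM + 1) scale, for the 19 genes whose change differed between the paxillin siRNA groups, with bars for the 95% interval. The genes were chosen by a limma adjusted p under 0.05 for the red difference, so the red intervals do not reach 0. The blue intervals all include 0, with Arc from −1.69 to 0.69.

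Without the block, no gene beyond these 19 passed. With it, 5 of 12 inhibitors of ERK signalling had a more negative change with BDNF, beside 340 of all 14250 genes tested. They were Dusp6, Spry4 (−1.28, adjusted p = 0.00376), Dusp5 (−1.80, 0.00915), Dusp4 (−1.06, 0.0128), and Spry2 (−0.57, 0.0269). Dusp6 was at 85.1 to 160.8 TPM and then at 55.1 to 172.7 TPM without BDNF, and the difference of −2.10 ± 0.58 passed with the block (adjusted p = 0.00137) but not without it (adjusted p = 0.254). Sc5d differed by −1.04, with a 95% interval from −1.82 to −0.26 (adjusted p = 0.647, and 0.066 with the block), and the median over the cholesterol list was −0.74. Col1a1 was also lower at DIV5 without BDNF, with 14.7 to 181.7 TPM at DIV3 and 0.742 to 19.8 TPM at DIV5, and its difference was −0.21 (95% interval −2.38 to 1.95). So was Sik1, at 58.7 to 113.9 TPM and then at 32.2 to 54.4 TPM without BDNF, a difference of −0.06 (−0.62 to 0.50). For Homer1 and Nrn1 the differences were −0.65 and −0.75 (limma, adjusted p = 0.897 and 0.999, and 0.0224 and 0.12 with the block). Gja1 without BDNF was at 14.1 to 41.7 TPM and then at 34.6 to 146.0 TPM, a difference of 0.47 (−1.30 to 2.24). The summed astrocyte markers without BDNF were at 330.2 to 1076 TPM at DIV3 and at 1149 to 2060 TPM at DIV5.

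Whether the change depended on the siRNA was addressed with SC siRNA and BDNF. No gene of 14250 (0%) passed the test of limma for a difference in the change from DIV3 to DIV5 between paxillin siRNA and SC siRNA, 554 had an unadjusted p under 0.05, and the smallest adjusted p was 0.991. The median difference over all genes was −0.08. Arc in SC libraries was at 80.9 to 271.8 TPM at DIV3 and at 16.6 to 19.9 TPM at DIV5, and Egr2 was at 31.2 to 136.4 TPM and at 2.53 to 5.1 TPM. The 95% interval of the difference ran from −1.69 to 0.69 for Arc and from −0.76 to 1.29 for Egr2, so that differences of more than 2-fold were not excluded. Cultures 10 and 11 had no SC libraries, and with cultures 1 and 2 alone, 0 genes passed and 310 had an unadjusted p under 0.05.

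The genes with the smallest p in this test are given as values. Syt4, a synaptotagmin of dense core vesicles, was at 1051, 954.9, 2179, and 1616 TPM at DIV3 and at 2115, 652.2, 746.1, 1184, and 1132 TPM at DIV5 in paxillin siRNA, and at 1832 to 2607 TPM and then 187.9 to 988.2 TPM in SC siRNA. Its difference was 1.87 (95% interval 0.87 to 2.87, adjusted p = 0.991). Nwd2, Sphkap, and the calcium channel subunit Cacna2d1 differed by 1.96, 1.56, and 1.25, and Tmem253 by −1.01. Pxn, given as the target of the siRNA and not for its p, differed by −0.59 (95% interval −1.15 to −0.03). It did not pass (limma, unadjusted p = 0.0402, adjusted p = 0.991), and its means in SC siRNA were 9.43 and 15.3 TPM at DIV3 and DIV5.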

How the data were processed

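RNA of 48 libraries of mouse cortex was sequenced, and 9 of them, with paxillin siRNA and BDNF at DIV3 or DIV5, are described here. The authors deposited gene levels as TPM for each library without pooling replicates. According to the submitters' processing notes, the tools were STAR 2.7.10 and RSEM 1.3.3 with the build GRCm38. Each library sums to 1000000 TPM over 39756 genes, so that the number of reads behind a value and its counting error are unknown. The labels state the groups and the days, and they add a number that is called the culture number here. No label says what the number stands for, and no library was moved.

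TPM were analysed as log2(TPM + 1) with limma 3.58.1 in R 4.3.3 (eBayes with a trend). A single fit over the groups of all 48 libraries covered 14250 genes, those whose mean reached 1 TPM, and p-values were adjusted by Benjamini-Hochberg and called under 0.05. The fit gave the change from DIV3 to DIV5 with paxillin siRNA and BDNF, and the difference of this change from those with SC siRNA and BDNF and with paxillin siRNA alone. Pxn was compared by a 2-sided exact permutation test. Fold changes on this scale understate those of low genes. On simulated data, 69% of 200 genes with a log2 change of 1 were called in the first comparison, with 3.5% of calls false, and 36% in the comparison with SC siRNA, with 5.26% false, over 14250 genes. The simulated libraries were independent of each other, unlike libraries of the same culture number, so these rates need not hold for the data.

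Libraries of the same culture number deviated together from their group means, with correlations of 0.26 to 0.56 over 4 pairs for the change and of 0.23 to 0.78 over 26 pairs for the comparison with paxillin siRNA alone. With SC siRNA they ranged from −0.03 to 0.56 over 16 pairs, so the numbers were not taken as pairs there. No 2 libraries were duplicates, with correlations of at most 0.993.

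The members and the 37 gene lists were chosen with earlier results of these data known. By rule, the text names Pxn, the 12 largest rises and falls without overlap and with a mean of at least 5 TPM, up to 6 genes of each list, and up to 8 genes of each difference. Further list members and the remaining genes that differed with BDNF were named after their values were seen. Alternative settings were no filter on low values or a filter over the 9 libraries, a pseudocount of 0.1, median ratio scaling, fewer groups or cultures, the culture as a block, and leaving out single libraries. Leaving out cultures 2 and 4 at DIV5 was chosen after seeing the data. Promoters of 300 bases were taken from RefSeq and searched for motifs, and 11256 of the tested genes had one. The hippocampal table was not used here. Tables were made with pandas 2.3.3 in Python 3.11.15, the permutation test with numpy 2.4.6, 95% intervals with scipy 1.17.1, and plots with matplotlib 3.10.9. Some genes of the lists are counted but not reported by name here.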

Additional observations from a re-analysis of the deposited data

Results flagged for a closer look

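The change from DIV3 to DIV5 differed with BDNF from that without it for 19 genes in paxillin siRNA (limma, interaction of day and BDNF). Among the genes named by rule, the difference was −4.12 for Arc, −3.87 for Egr2, −3.24 for Egr1, −3.13 for Ch25h, and 0.86 for Gdf9.

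Single libraries stood far from the rest of their group in 8 of 124 groups of values examined, where chance places a library apart in about 1 of 20. Pxn was highest in culture 2 at DIV3, at 11.8 TPM, and Ch25h was lowest in culture 1 at DIV3, at 76.6 TPM. Peg10 was lowest in culture 2 at DIV3, at 258.7 TPM. In culture 10 at DIV5, Galr1 (0.588 TPM) and Trmt9b (10.2 TPM) were the highest of 5. The summed oligodendrocyte precursor markers were lowest in culture 10 at DIV3, at 590.1 TPM, and the calcium channel genes were highest in culture 1 at DIV5, at 472.7 TPM. The nuclear respiratory chain genes were lowest in culture 2 at DIV3, at 5664 TPM.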

How the results depend on the processing

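Against 1856 genes that changed from DIV3 to DIV5, the culture as a replicate block gave 3570, which share 1727 with them. Only cultures 1, 2, 10, and 11 gave 1058, cultures 1 and 2 alone 77, cultures 10 and 11 alone 86, and leaving out cultures 2 and 4 at DIV5 gave 422. Leaving out single libraries gave 845 (without culture 10 at DIV3) to 2104 (without culture 10 at DIV5), with 1145 without culture 11 at DIV3, 1069 without culture 2 at DIV5, and 1058 without culture 4 at DIV5. The other alternatives gave between 1781 and 2651. All 1856 genes kept their direction in every alternative that tested them, and of 109 named genes that changed, the call held for 63 to 105 with single libraries left out and for 107 with the block.

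For the comparison with paxillin siRNA without BDNF, 19 genes became 40 without a filter, 47 with only these groups, 534 with the block, 10 with only cultures 1, 2, 10, and 11, and 12 to 22 with single libraries left out. There were 12 genes without culture 10 or 11 at DIV3 with BDNF, culture 2 at DIV5 with BDNF, or culture 1 at DIV3 without BDNF. Against SC siRNA, leaving out single libraries gave 0 to 1 genes, and the block, whose numbers are not taken as pairs there, gave 0 genes with 2191 at an unadjusted p under 0.05. For the change from DIV3 to DIV5, Grm3 (adjusted p = 0.0706) and Sqle (0.0542) were the named genes that no longer passed with the block, and Fdps (0.0587) and Nsdhl (0.0654), named after their values were seen, did not pass either. The difference of Pxn, 0.04, was −0.01 with the block and ranged from −0.04 to 0.11 with single libraries left out. Why the counts moved was not tested, although cultures 1 and 2 or 10 and 11 alone leave fewer libraries per day. TPM give no depth, so the limit that counting sets on low genes is unknown.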

Other observations

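At DIV10, 2 libraries with paxillin siRNA and BDNF (cultures 10 and 11) were sequenced, and their values are given without a test. Arc was at 105.0 and 114.7 TPM, well above the 14.6 to 16.6 TPM of DIV5 and below the 167.8 to 222.8 TPM of DIV3. Egr1 at 136.9 to 164.3 TPM and Peg10 at 63.2 to 76.5 TPM were within their DIV5 ranges, and Egr2 was at 3.1 to 5.79 TPM, against 1.49 to 5.39 TPM at DIV5. Cyp51 was at 37.5 to 41.1 TPM, below every DIV5 library.

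Markers of glia were higher still at DIV10. The summed astrocyte markers were at 7020 to 7416 TPM against 1393 to 2146 TPM at DIV5. The myelin markers were at 3258 to 3984 TPM against 58 to 250.1 TPM, and the microglia markers at 753.7 to 1314 TPM against 30.6 to 73.8 TPM. The fibroblast markers stayed low, at 6.86 to 10.1 TPM. The genes of immature neurons and axon growth were at 29128 to 29405 TPM, below the 41713 to 63729 TPM of DIV5.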
